A study of Mus musculus with 18 samples.

Results

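This comparison asks what loss of Irx3 adds in the mouse ventricle when Irx4 is already mutant. It sets 3 libraries labelled Irx3KO_Irx4KO (double knockout, DKO, replicates 2, 3 and 4) against 3 labelled Irx4KO (replicates 2, 3 and 4), 6 of the 18 libraries of the series, chosen by their labels and by a shared technical profile. All of them hold polyA RNA of heart ventricles at E14.5, and both groups carry the label of an Irx4 knockout, so the groups differ by label in Irx3 alone. The other genotypes used here are Irx3KO (Irx3 knockout, replicates 1, 2 and 4) and Irx3het_Irx4het (double heterozygote, dHet, replicates 2, 3 and 4), and, from the second technical profile, WT replicates 1 to 3 and DKO replicates 5, 7 and 10. Neither the alleles, the strain and the sex nor the number of embryos behind each library is given in the labels, and the p-values below therefore rest on library-to-library spread that may be technical. In all, 16292 genes were tested.

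Irx3 and Irx4 belong to the Iroquois family of homeodomain transcription factors, which lie in clusters in the genome and bind DNA through a homeodomain of the TALE class. In the mouse heart, Irx4 is known as a ventricle-restricted factor of working myocardium, and Irx3 as a factor of the trabeculae and the ventricular conduction system, where it keeps the levels of the gap junction genes Gja5 and Gja1 apart. Irx3, Irx5 and Irx6 form one cluster on chromosome 8, and Irx1, Irx2 and Irx4 form another on chromosome 13.

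Levels below are CPM, estimated counts relative to the library size after TMM scaling. A gene is called when its Benjamini-Hochberg adjusted p from the quasi-likelihood test of edgeR is under 0.05, and all adjusted p-values come from that test unless another tool is named. The 6 libraries held between 36802673 and 42500376 estimated counts. Y-linked genes summed to 1.1 CPM in DKO 4 and to 1.44 CPM in dHet 2, while the remaining libraries of the profile had 98.1 to 174 CPM. Cardiomyocyte markers summed to between 32700 and 35200 CPM in Irx4KO and between 31500 and 35300 CPM in DKO. Other cell types were present as well. The erythroid and platelet markers had sums of 4600 to 9240 CPM in Irx4KO and 4580 to 6700 CPM in DKO. Of these 15 markers, 6 had positive differences. The embryonic globin gene Hbb-y had 467, 581 and 391 CPM in Irx4KO and 563, 778 and 1640 CPM in DKO (adjusted p = 0.52). The embryonic globin genes Hba-x and Hbb-bh1 also had positive differences, while the adult ones Hba-a1, Hba-a2, Hbb-bs and Hbb-bt had negative ones, and none was called. DKO 4 had the highest Hbb-y, Hba-x and Hbb-bh1 and the lowest Hbb-bs and Hbb-bt of the 6 libraries. Of 7 lymphatic markers 3 were lower without overlap, against 7.94% of all genes, and none was called. Of 6 liver and lung markers, Alb, Apoa1, Sftpc and Nkx2-1 were under 0.1 CPM, and the sum of the list was 0.906 to 1.62 CPM in Irx4KO and 0.395 to 0.627 CPM in DKO, with Afp at 0.495 to 1.01 and 0.0564 to 0.162 CPM. Of 6 skeletal muscle markers Myod1 was under 0.1 CPM, while the sum, mostly Ckm and Acta1, which embryonic heart also expresses, was 536 to 602 CPM in Irx4KO and 288 to 563 CPM in DKO. Their part in the results was not tested. Long transcripts were estimated lower and short ones higher in the DKO libraries than in Irx4KO. The rank correlation across genes of a library's deviation with transcript length was -0.223, -0.062 and -0.152 in DKO and 0.073, -0.022 and -0.017 in Irx4KO (a description across genes that share each library). Among the 4073 shortest genes 373 were higher and 81 lower at an unadjusted p under 0.05, and among the 4073 longest 95 were higher and 361 lower.

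The targeted gene separated the groups. Irx3 (ENSMUSG00000031734, chromosome 8) stood at 22.2, 26.3 and 26.4 CPM in Irx4KO and at 3.3, 3.82 and 3.84 CPM in DKO. All 3 DKO libraries lay below all 3 Irx4KO libraries, and Irx3 fell by 2.77 ± 0.11 (SE) on the log2 scale (adjusted p = 2.8e-08). In the other genotypes of this profile the order followed the number of intact copies by label, with 12.8, 13.2 and 13.4 CPM in dHet and 2.81, 3.13 and 2.58 CPM in Irx3KO. The counts that were left in DKO were assigned almost wholly to 1 of the 2 annotated transcripts. Irx3-202 had a mean of 17.1 CPM in Irx4KO and 3.32 CPM in DKO, whereas Irx3-201 had a mean of 6.09 CPM in Irx4KO and stood at 0.275, 0 and 0 CPM in DKO. These transcript values are kallisto's split of reads between overlapping models and carry no test.

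Irx4 counts did not fall with the Irx4 knockout label. Irx4 counts stood at 220, 216 and 239 CPM in Irx4KO and at 236, 230 and 222 CPM in DKO, and the groups overlapped. The log2 difference was 0.03 with a 95% interval from -0.10 to 0.16 (adjusted p = 0.93). These levels lay above those in dHet (191, 189 and 177 CPM), which lay above those in Irx3KO (135, 142 and 158 CPM). In the second profile, fitted apart, WT had 82.4, 78.6 and 126 CPM and DKO 5, 7 and 10 had 283, 216 and 258 CPM. That log2 difference was 1.4 ± 0.19 (adjusted p = 0.064). In Irx4KO and DKO of the first profile, 88.3% to 91.8% of the gene's counts came from Irx4-202. Which part of Irx4 the allele removes is not stated, so counts over the whole gene cannot show its loss.

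Beyond Irx3, the test called 3 genes, Adgre5, Mt2 and Bbs2, and all 4 called genes lie on chromosome 8, where Irx3 lies. The 4 make up 0.0246% of the tested genes, with 1 higher in DKO (0.00614%) and 3 lower (0.0184%). An unadjusted p under 0.05 was reached by 1524 genes (9.35%), and the 3 DKO libraries did not overlap the 3 Irx4KO libraries in 2447 genes (15%). The number of called genes depended on single libraries. It was 43 without DKO 3, 9 without dHet 4, 7 without dHet 3, 2 without DKO 4 and 1, Irx3, without Irx4KO 3. DESeq2 called 111 genes on the same counts (0.681%), which include all 4.

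Adgre5 (ENSMUSG00000002885) encodes the adhesion receptor CD97. Its level was 72.9, 74.8 and 74.5 CPM in Irx4KO and 51.2, 56.3 and 52.5 CPM in DKO. The 3 DKO libraries all lay below the Irx4KO libraries, and Adgre5 fell by 0.47 ± 0.06 on the log2 scale (adjusted p = 0.008). Its adjusted p was 0.052 without DKO 4 and 0.084 without Irx4KO 3. The Irx3KO libraries (55.6, 51.4 and 54.2 CPM) lay within the DKO range, and the dHet libraries (67, 59.5 and 62.4 CPM) lay between the ranges of Irx4KO and DKO.

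Mt2 (ENSMUSG00000031762) encodes a metallothionein, a small cysteine-rich protein that binds zinc and copper. It was measured at 9.77, 9.37 and 8.9 CPM in Irx4KO and at 1.88, 1.91 and 2.2 CPM in DKO. The groups were far apart, and Mt2 fell by 2.23 ± 0.28 on the log2 scale (adjusted p = 0.021). The adjusted p over the leave-one-out fits ran from 0.00013 to 0.11, and the call held in 8 of 12 of them. In Irx3KO Mt2 stood at 2.61, 1.93 and 1.72 CPM. The dHet libraries were spread wide, at 2.69, 7.01 and 5.66 CPM.

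Bbs2 (ENSMUSG00000031755) encodes a subunit of the BBSome, a complex that carries membrane proteins into and out of cilia. It stood at 7.78, 7.72 and 9.4 CPM in Irx4KO and at 14.4, 17 and 15.3 CPM in DKO. All DKO libraries were above all Irx4KO libraries, and Bbs2 rose by 0.91 ± 0.13 on the log2 scale (adjusted p = 0.04). This call held in 5 of 12 leave-one-out fits, with adjusted p from 0.0032 to 0.23. Irx3KO libraries had 15.2, 15.9 and 15.3 CPM, and dHet libraries had 15.2, 10.7 and 11.2 CPM.

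Mt3, the metallothionein gene between Bbs2 and Mt2 in the order of tested genes, just missed the threshold (adjusted p = 0.064) and moved opposite to Mt2. Its level was 0.78, 0.727 and 1.92 CPM in Irx4KO and 5.61, 6.49 and 5.3 CPM in DKO, a log2 difference of 2.35 ± 0.35. The 2 groups did not overlap, and Irx3KO libraries lay in between at 3.85, 4.06 and 4.8 CPM. Mt1, the gene next to Mt2 in this metallothionein cluster, had 23.1, 24.4 and 22.9 CPM in Irx4KO and 16.2, 19 and 15.7 CPM in DKO, again without overlap (log2 difference -0.47 ± 0.15, adjusted p = 0.35). In dHet 2, Irx3 was at the level of the other dHet libraries (12.8 CPM), while Mt2 (2.69 CPM) and Bbs2 (15.2 CPM) stood nearer to the Irx3KO libraries than in dHet 3 (7.01 and 10.7 CPM) and dHet 4 (5.66 and 11.2 CPM). Mt3 did not set it apart (3.88 CPM, with 3.5 in dHet 3 and 1.89 in dHet 4), and Adgre5 (67 CPM) was the dHet value farthest from Irx3KO. dHet 2 is 1 of the 2 libraries with few Y-linked counts. With sex as a term in the fit, the log2 difference was 0.84 for Bbs2 (adjusted p = 0.064), -2.03 for Mt2 (adjusted p = 0.047) and -0.49 for Adgre5 (adjusted p = 0.011).

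**Figure D1:**
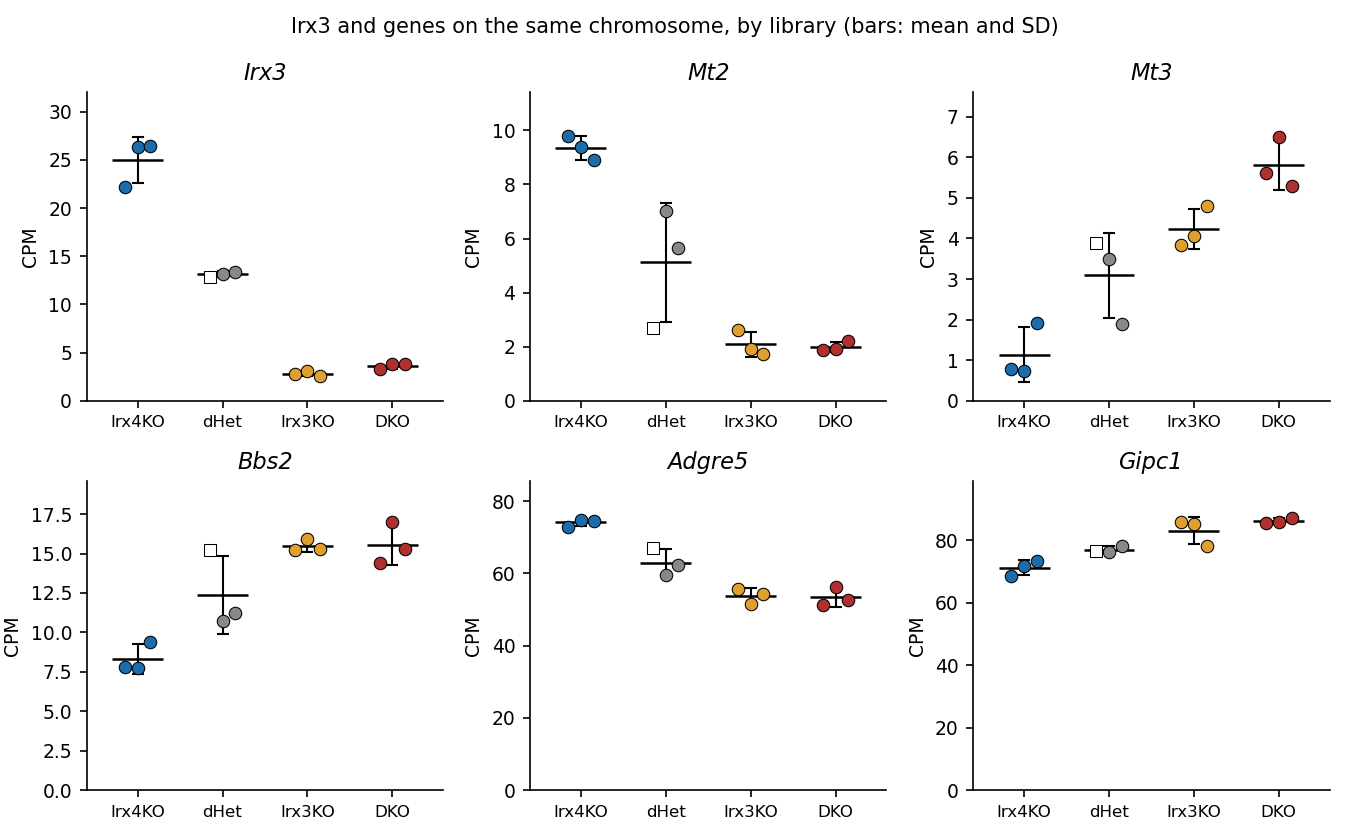
Levels in CPM (y axis) of Irx3 and 5 other chromosome 8 genes in the 12 libraries of 1 technical profile, grouped by genotype on the x axis, with the mean and SD of 3 libraries as black bars and dHet 2 as an open square. Irx3 falls from Irx4KO through dHet to Irx3KO and DKO, and in Mt2 the Irx3KO and DKO libraries lie between 1.72 and 2.61 CPM while the Irx4KO libraries lie between 8.9 and 9.77 CPM.

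The sequences before the starts of Bbs2, Mt3 and Mt2 are shown because these 3 genes, adjacent in the order of tested genes, differed in opposite directions, with Bbs2 and Mt3 higher and Mt2 lower in DKO. They are the 250 bases upstream of each start in RefSeq (GRCm38.p6), printed 5′ to 3′ on the gene's strand. Windows were found for 3 of the 4 called genes. The palindrome bound by Iroquois proteins, ACANNTGT, was searched on both strands. So was TGCNCNC, which was chosen after the values were seen. It is looser than TGCRCNC (R for A or G), the core of the metal response element through which zinc and MTF1 act on metallothionein genes. The capitals mark matches to TGCNCNC, of which GGGAGCA (in Mt3 and Mt2) and TGCTCTC (in Mt2) do not match TGCRCNC. No match to ACANNTGT was found in these windows.
Bbs2, chr8:94098510-94098759, minus strand: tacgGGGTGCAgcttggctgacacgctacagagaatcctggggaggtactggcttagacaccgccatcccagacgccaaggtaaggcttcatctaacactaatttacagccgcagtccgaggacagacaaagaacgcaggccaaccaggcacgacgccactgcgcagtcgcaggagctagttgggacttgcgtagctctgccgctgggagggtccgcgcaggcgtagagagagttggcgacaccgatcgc
Mt3, chr8:94152357-94152606, plus strand: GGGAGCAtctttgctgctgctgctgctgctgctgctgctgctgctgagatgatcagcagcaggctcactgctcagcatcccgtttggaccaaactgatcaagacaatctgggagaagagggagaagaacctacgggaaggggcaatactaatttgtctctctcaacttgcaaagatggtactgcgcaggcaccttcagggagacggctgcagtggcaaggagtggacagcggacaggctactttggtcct
Mt2, chr8:94172368-94172617, plus strand: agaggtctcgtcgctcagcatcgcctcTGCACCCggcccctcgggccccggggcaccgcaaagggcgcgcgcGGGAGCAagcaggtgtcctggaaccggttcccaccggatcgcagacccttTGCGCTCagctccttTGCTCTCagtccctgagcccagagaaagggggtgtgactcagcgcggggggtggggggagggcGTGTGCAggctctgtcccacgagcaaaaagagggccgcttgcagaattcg
The Mt2 sequence held 5 matches to TGCNCNC, that of Mt3 1 and that of Bbs2 1. In windows of 300 bases (250 before and 50 after the start), Mt2 held 6, Mt3 3 and Bbs2 1. Mt1, not printed, held 1 match in its 250 bases and 3 in its window. Over all 32851 RefSeq windows, 51% held TGCNCNC and 7.4% held ACANNTGT. In windows of tested genes the shares were 59.7% and 4.2%, so a single match to the first is common. A match is a description of letters and not a binding site.

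Genes near Irx3 were then taken as a group. In the list of 29 neighbours of Irx3 on chromosome 8, 28 were tested, Bbs2 rose, Mt2 fell, and the other 26 were not called. At an unadjusted p under 0.05, 5 were higher and 7 lower, against 4.62% and 4.74% of all genes. The list was chosen with earlier results of these data known and leaves out some tested genes of its stretch. Its shares are therefore a description and not a test. Of the 100 tested genes around Irx3 taken by order alone, 16 had p under 0.05. The groups did not overlap in 7 higher and 7 lower members, against 7.08% and 7.94% of all genes. The median log2 difference was -0.029 beside -0.004 over all genes, so members differed in both directions. Irx6, the third gene of the cluster, had 1.16, 1.26 and 1.31 CPM in Irx4KO and 2.92, 2.64 and 4.2 CPM in DKO (log2 difference 1.39 ± 0.29, adjusted p = 0.16). Irx5 had 18.9 ± 1.35 CPM (SD, n = 3) in Irx4KO and 15.9 ± 2.06 CPM in DKO (-0.25, 95% interval -0.49 to 0.00, adjusted p = 0.53). For Fto, whose introns hold regulatory elements of Irx3, the difference was -0.07 ± 0.04 (133 and 127 CPM, adjusted p = 0.59). In Rpgrip1l, a cilium transition zone gene next to Fto, it was -0.26 ± 0.07 (adjusted p = 0.32). Of the 16 tested neighbours of Irx4 on chromosome 13, none was called, and 1 was higher and 1 lower at p under 0.05.

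Differences were also frequent further along chromosome 8. Of the 864 tested genes there, 16 (1.85%) had an unadjusted p under 0.001, against 0.466% of all genes and between 0.0934% and 1.03% on every other chromosome. The other comparisons did not set chromosome 8 apart in this way. In Irx3KO against dHet 2 of its genes had p under 0.001, and other chromosomes held 0 to 4. In DKO 5, 7 and 10 against WT 8 did, and other chromosomes held 1 to 10, with only chromosome 2 (10) above chromosome 8. By these counts chromosome 8 was within the range of the others in both comparisons. At the looser limit of p under 0.05 the share was 11.2%, within the range of other chromosomes (7.76% to 11.9%). Of the 111 genes that DESeq2 called, 18 (16.2%) lay on chromosome 8, which holds 5.3% of the tested genes. Counted in tested genes from Irx3, Irx6 stood 3 after it, Bbs2, Mt3 and Mt2 15, 16 and 17 after it, Adgre5 86 before it, Gipc1 90 before it and Fkbp8 200 before it. Along this order toward Irx3, the share of genes with p under 0.05 was 8.12% in the first 234 genes, 14% in the next 100, 17% in the next 100, 24% in the next 50 and 16% in the 100 genes around Irx3. Beyond them it was 10% in the next 50, 5% in the next 100 and 6.2% in the last 129. Positions were counted from the gene order of GRCm38, chosen after the data were seen.

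Gipc1 and Fkbp8, named after their values were seen, show the size of these differences. Gipc1 encodes a PDZ adaptor of receptor trafficking, and its level was 68.5, 71.8 and 73.4 CPM in Irx4KO and 85.4, 85.7 and 87.2 CPM in DKO (log2 difference 0.27 ± 0.05, adjusted p = 0.067). Fkbp8 encodes an immunophilin that anchors Bcl2 at mitochondria. It had 106, 75.2 and 87.7 CPM in Irx4KO and 140, 137 and 125 CPM in DKO (0.58 ± 0.10, adjusted p = 0.067). Neither gene's groups overlapped. Hand2, a transcription factor of the ventricular myocardium and also on chromosome 8, had 87.2, 94.1 and 92.5 CPM in Irx4KO and 102, 104 and 115 CPM in DKO (0.23 ± 0.05, adjusted p = 0.20). DKO libraries are by label homozygous for the Irx3 allele and for whatever DNA is inherited with it, so loss of Irx3 and differences in linked DNA cannot be told apart for any gene on this chromosome.

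**Figure D2:**
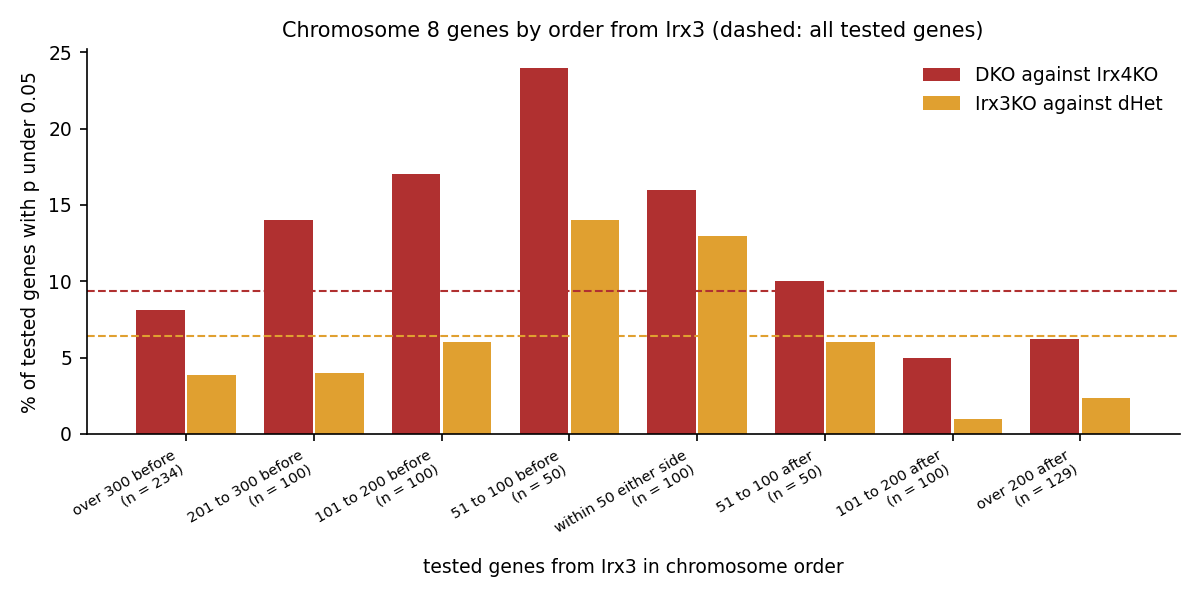
Share of tested genes with an unadjusted p under 0.05 (y axis, %) by their order from Irx3 on chromosome 8 (x axis, with the number of genes in each bin), for DKO against Irx4KO in red and Irx3KO against dHet in yellow, with the share of all tested genes as dashed lines. In DKO against Irx4KO the share peaks at 24% in the bin of 50 genes just before those around Irx3, and in Irx3KO against dHet it reaches 14% in the same bin and 13% in the 100 genes around Irx3.

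The same genes were then read in the other genotypes. Irx3KO and dHet share no library with the comparison above, but they are in the same fit and so helped set the spread by which genes were called. They also differ in Irx4 by label, and dHet has 1 intact Irx3 copy. In Irx3KO against dHet 2 of the 16292 genes were called (0.0123%), Irx3 and Rplp0. Irx3 differed by -2.21 there, Mt2 by -1.29 ± 0.28 (unadjusted p = 0.00059), Bbs2 by 0.32 (unadjusted p = 0.027), Adgre5 by -0.23 (unadjusted p = 0.0011), Fkbp8 by 0.38 (unadjusted p = 0.0019) and Mt3 by 0.44 (unadjusted p = 0.20). Of the 15 chromosome 8 genes besides Irx3 with p under 0.001 in DKO against Irx4KO, 14 had the same sign in Irx3KO against dHet, as had 46 of 60 such genes on other chromosomes and 58.5% of all genes. At the looser limit of p under 0.05, 73 of 96 chromosome 8 genes besides Irx3 (76%) had the same sign. On other chromosomes 1032 of 1427 genes (72.3%) did. By order on chromosome 8, the share with p under 0.05 in Irx3KO against dHet was 14% in the 50 genes where it peaked above and 13% in the 100 genes around Irx3, against 6.41% of all genes, and between 1% and 6% in the other bins.

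A further set of libraries, DKO 5, 7 and 10 against WT, also shares none with the first but differs in Irx4 as well, and was normalized separately. It called 16 of 15766 genes (0.101%), and 8.42% had an unadjusted p under 0.05. There Irx3 differed by -2.73 on the log2 scale (adjusted p = 0.00074), Mt3 by 2.61 (adjusted p = 0.044), Bbs2 by 0.96 (adjusted p = 0.073) and Mt2 by -1.57 (adjusted p = 0.55). Adgre5 differed by -0.09 (adjusted p = 0.88) and Fkbp8 by 0.21 (adjusted p = 0.85). The sign was the same in 13 of 15 chromosome 8 genes, in 45 of 57 genes on other chromosomes and in 59.7% of all genes. For genes with p under 0.05 in DKO against Irx4KO, it was the same in 68 of 95 on chromosome 8 besides Irx3 (71.6%). On other chromosomes it was the same in 1026 of 1388 (73.9%).

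**Figure D3:**
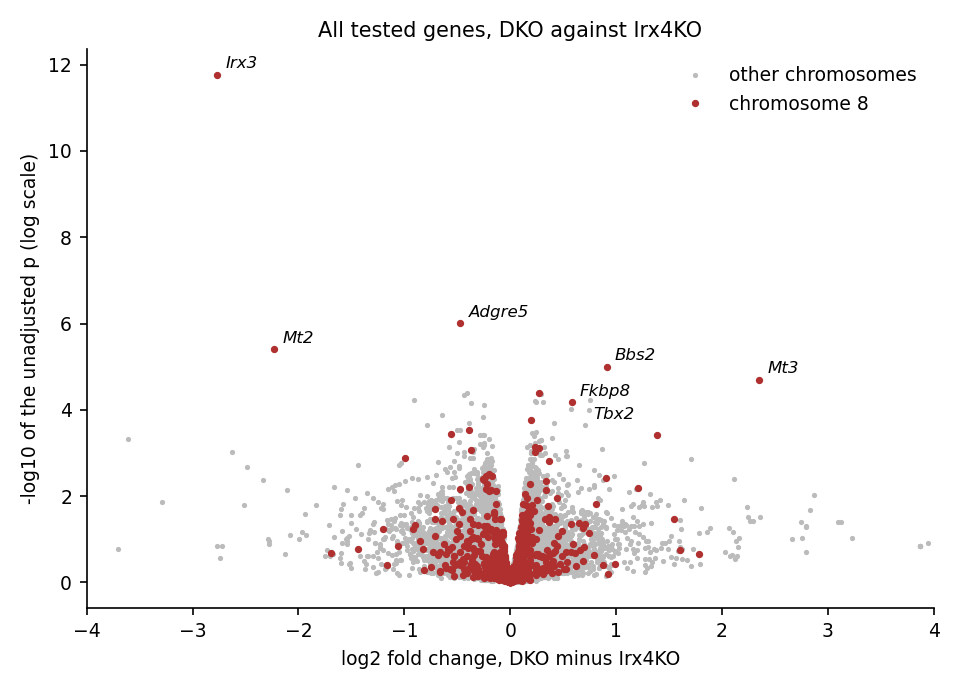
Log2 fold change of DKO minus Irx4KO (x axis) against -log10 of the unadjusted p (y axis) for the tested genes, with chromosome 8 genes in red and all others in grey. Irx3, Adgre5, Mt2 and Bbs2 are the 4 called genes, and 24 genes with log2 values beyond 4 in either direction lie outside the range plotted.

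The rest of the report describes cardiac gene groups, of which none but those that hold Irx3, Mt2 or Bbs2 had a called member. The lists hold ventricular, trabecular, conduction and metabolic genes of the heart. Genes named from them were mostly picked for a small p, which favours groups that do not overlap. Over all tested genes, the groups did not overlap in 2447 (15%). In bulk RNA, fewer cells of a type and less RNA per cell cannot be told apart.

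Among 31 cardiac transcription factors tested, none was called, with 3 higher and 4 lower at p under 0.05 and a median of -0.026. Tbx2, a T-box repressor of chamber genes that is normally confined to the atrioventricular canal and outflow tract, had the largest difference. Its level was 20.5, 20.9 and 21.8 CPM in Irx4KO and 27.1, 38.3 and 37.9 CPM in DKO. All DKO libraries were higher, with DKO 2 below the other two, and the log2 difference was 0.71 ± 0.14 (adjusted p = 0.13). DESeq2 gave an adjusted p of 0.00034. In Irx3KO and dHet, where Irx4 is intact or heterozygous, Tbx2 stood at 19.2, 16.6 and 21.7 CPM and at 16.4, 14.7 and 19 CPM. The difference of Irx3KO from dHet was 0.20 (unadjusted p = 0.17), and that of DKO 5, 7 and 10 from WT was 0.95 (adjusted p = 0.051). Tbx5, an activator of chamber genes, differed by 0.19 ± 0.06 (adjusted p = 0.37) and Nkx2-5 by 0.13 ± 0.06 (adjusted p = 0.55). Hey2, a repressor in compact myocardium that was named after its values were seen, had 169 and 172 CPM (0.02, 95% interval -0.14 to 0.19).

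Atrial chamber genes leaned high, with a median of 0.182 that ran from 0.132 (without DKO 3) to 0.265 (without DKO 2). Of 16 tested, none was called, 5 were higher at p under 0.05 against 4.62% of all genes, and none was lower. Myl7, the atrial myosin light chain, had 351, 389 and 390 CPM in Irx4KO and 475, 428 and 491 CPM in DKO (0.30 ± 0.07, adjusted p = 0.22). Mybphl, an atrial myosin-binding protein, had 4.18, 5.51 and 5.67 CPM in Irx4KO and 8.12, 7.83 and 12.1 CPM in DKO (0.87 ± 0.20, adjusted p = 0.21). The groups did not overlap in either gene. Kcnj3, an atrial potassium channel gated by G proteins, had 32.4, 28.1 and 31.8 CPM in Irx4KO and 35, 41.5 and 47.3 CPM in DKO (0.42 ± 0.10, adjusted p = 0.23). Chrm2, the muscarinic receptor upstream of that channel, went the other way, from 67.9, 77.9 and 64.8 CPM to 58, 55.2 and 53.4 CPM (-0.34 ± 0.08, adjusted p = 0.21). The 7 markers of atrial tissue, which overlap this list, summed to between 1690 and 1810 CPM in Irx4KO and between 1840 and 2130 CPM in DKO, 3 of them higher at p under 0.05. Most of the sum was Myl4. Only 4 of the 7 had positive differences, and Sln (-0.31), Nr2f1 (-0.26) and Nr2f2 (-0.09) had negative ones. The part of atrial tissue in the dissected pieces was not tested.

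Sarcomere genes showed no common direction. Of 37 tested, none was called, and 4 were higher and 3 lower at p under 0.05. Myl4, the second atrial light chain, had 1320 ± 40.8 CPM in Irx4KO and 1490 ± 135 CPM in DKO (0.18, adjusted p = 0.42), whereas Ldb3, a Z-disc protein, had 847 ± 36.9 and 731 ± 61.9 CPM (-0.21, adjusted p = 0.35). The 13 ventricular chamber genes had a median of -0.026, with 2 lower at p under 0.05, and the 16 genes of the compact wall had a median of 0.002.

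Calcium handling genes leaned low, with a median of -0.069 and 19 of 25 differences negative, beside 8334 of 16292 over all genes. The median was -0.035 without DKO 4, -0.102 without Irx4KO 2 and -0.039 with the trends on length and GC content removed. None was called, and 4 were lower and none higher at p under 0.05, against 4.74% and 4.62% of all genes. Pln, which encodes phospholamban, the inhibitor of the calcium pump, had 1590, 1670 and 1570 CPM in Irx4KO and 1420, 1360 and 1350 CPM in DKO (-0.23 ± 0.06, adjusted p = 0.26). Trdn, which encodes triadin of the calcium release complex, had 98.3, 102 and 96.9 CPM in Irx4KO and 90.5, 78.4 and 78.5 CPM in DKO (-0.26 ± 0.06, adjusted p = 0.16). In both genes all DKO libraries lay below all Irx4KO libraries. Pln differed by -0.02 in Irx3KO against dHet and by -0.44 in DKO 5, 7 and 10 against WT. In the same 2 comparisons Trdn differed by -0.05 and by 0.16, the second with the opposite sign. Casq2, the calcium store protein that triadin binds, had 482, 525 and 495 CPM in Irx4KO and 390, 398 and 273 CPM in DKO (-0.50 ± 0.20, adjusted p = 0.49), with DKO 4 the lowest.

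The sodium and potassium channel genes split. Of 30 tested, none was called, with 3 higher and 4 lower at p under 0.05. Kcnh7, a potassium channel of the ERG type, had 16.3, 15.3 and 14.4 CPM in Irx4KO and 18.8, 21.5 and 26.2 CPM in DKO (0.53 ± 0.13, adjusted p = 0.24). Abcc9, a regulatory subunit of potassium channels gated by ATP, had 229, 237 and 229 CPM in Irx4KO and 184, 218 and 158 CPM in DKO (-0.31 ± 0.10, adjusted p = 0.35). The groups did not overlap in either gene.

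The gap junction genes that Irx3 is best known for did not separate the groups. Gja1, which encodes connexin 43 of working myocardium, had 312, 329 and 326 CPM in Irx4KO and 302, 343 and 328 CPM in DKO (0.01, 95% interval -0.12 to 0.14, adjusted p = 0.98). Gja5, which encodes connexin 40 of the trabeculae and the conduction system, had 199, 188 and 197 CPM in Irx4KO and 182, 274 and 212 CPM in DKO (0.19, 95% interval -0.08 to 0.46, adjusted p = 0.67). DKO 3 and DKO 4 lay above the Irx4KO libraries and DKO 2 below them. Both genes were named after their values were seen. Apart from Irx3, none of the 19 tested trabecular and Purkinje genes was called, with 3 higher and 2 lower (Irx3 included) at p under 0.05. Nppa, the natriuretic peptide of trabeculae and atria, had 781, 856 and 886 CPM in Irx4KO and 904, 1290 and 1080 CPM in DKO (0.37, 95% interval -0.06 to 0.81, adjusted p = 0.59). Ctnna3, an alpha-catenin of the intercalated disc, had 51.3, 55.7 and 51.4 CPM in Irx4KO and 43.5, 46.1 and 42.6 CPM in DKO (-0.26 ± 0.05, adjusted p = 0.11).

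**Figure D4:**
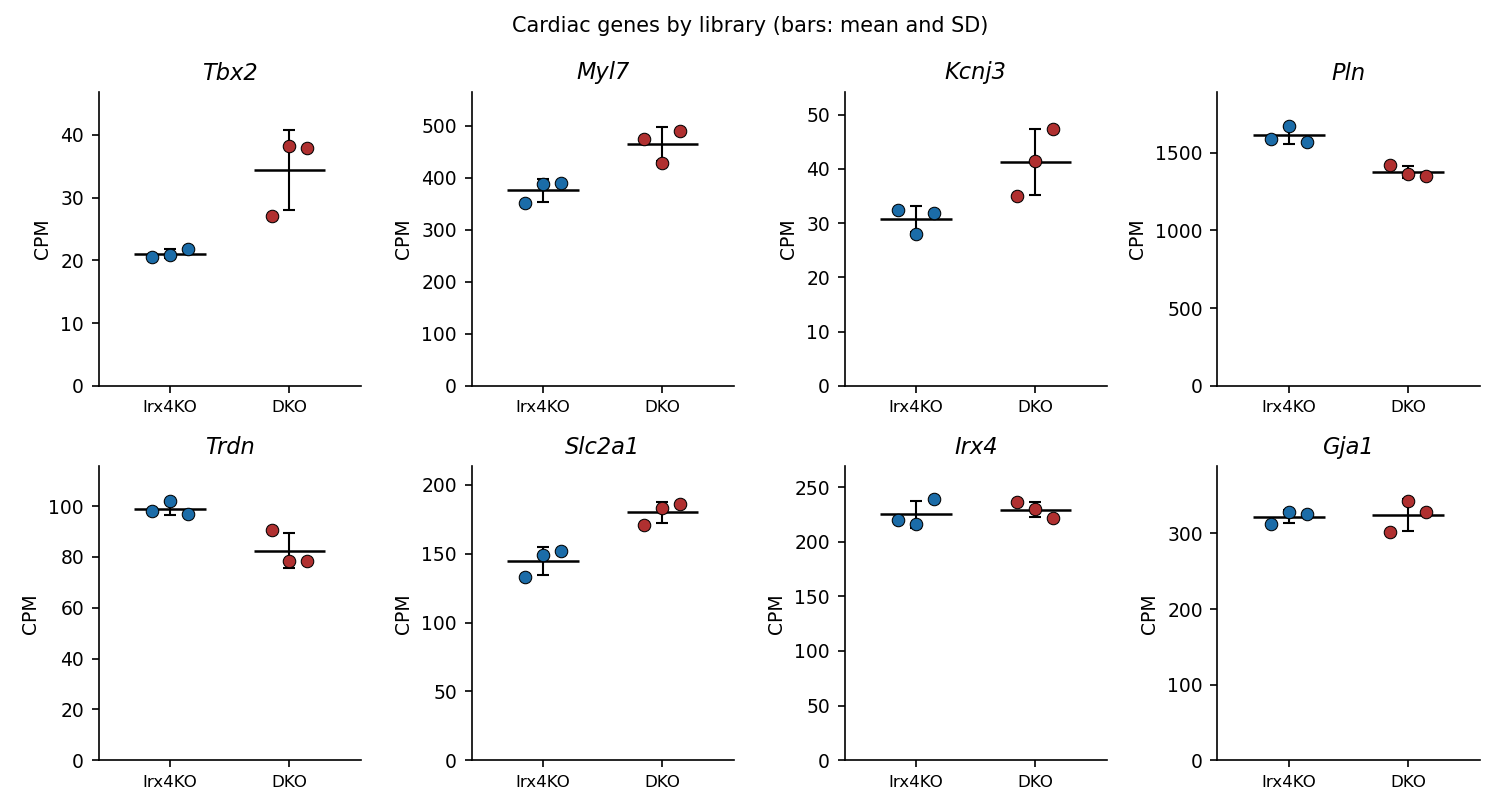
Levels in CPM (y axis) of 8 cardiac genes in the 3 Irx4KO and 3 DKO libraries (x axis), with the mean and SD as black bars. The groups do not overlap in Tbx2, Myl7, Kcnj3, Pln, Trdn and Slc2a1 and overlap in Irx4 and Gja1, and none of the 8 genes was called. Those that do not overlap were named for a small p in their lists, and 15% of all tested genes did not overlap.

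Genes of sugar use leaned high, but not without DKO 3. Of 24 glycolysis and hypoxia genes, none was called, 8 were higher at p under 0.05 against 4.62% of all genes, none was lower, and the median was 0.106. Without DKO 3 that median was -0.01, and without DKO 4 it was 0.165. Slc2a3, a glucose transporter, had 43.5, 41.2 and 47.5 CPM in Irx4KO and 56.1, 63.2 and 54.4 CPM in DKO (0.39 ± 0.08, adjusted p = 0.17). Slc2a1, the main fetal glucose transporter, had 133, 149 and 152 CPM in Irx4KO and 171, 183 and 186 CPM in DKO (0.32 ± 0.07, adjusted p = 0.20). Neither gene's groups overlapped. Pfkl, a subunit of phosphofructokinase, differed by 0.22 ± 0.06 (adjusted p = 0.24). Hif3a, a member of the hypoxia-inducible factor family that was named after its values were seen, had 221, 244 and 221 CPM in Irx4KO and 174, 184 and 158 CPM in DKO (-0.41 ± 0.07, adjusted p = 0.067). Its difference was -0.35 in Irx3KO against dHet (unadjusted p = 0.0002) and -0.39 in DKO 5, 7 and 10 against WT (unadjusted p = 0.00092). The 27 genes of fatty acid oxidation and respiration had a median of -0.036, with 3 higher and 3 lower at p under 0.05.

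Cell cycle genes also leaned high by small amounts. Of 30 tested, none was called, and the median was 0.129. At p under 0.05, 11 were higher and none lower, against 4.62% and 4.74% of all genes. The higher ones included the cell cycle inhibitors Cdkn1c (0.36, unadjusted p = 0.038) and Cdkn1a (0.24, unadjusted p = 0.048). Mki67, a marker of cycling cells, had 492 CPM in both groups. Aurka, a mitotic kinase, had 53.6 ± 2.27 CPM in Irx4KO and 62.4 ± 5.15 CPM in DKO (0.22 ± 0.06, adjusted p = 0.32), and Cdk4, a kinase of cell cycle entry, had 289 ± 6.7 and 321 ± 19 CPM (0.15 ± 0.04, adjusted p = 0.32). In Irx3KO against dHet these genes differed by 0.08 and 0.01. With the trends of each library on transcript length and GC content removed, 11 cell cycle genes were again higher at p under 0.05, and the median was 0.119. Without DKO 4, 7 were higher, and the median ran from 0.07 (without DKO 2) to 0.179 (without DKO 3).

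Extracellular matrix genes leaned low. Of 37 tested, none was called, 8 were lower at p under 0.05 against 4.74% of all genes, none was higher, and the median was -0.09. That median was -0.144 without DKO 3, -0.059 without Irx4KO 3 and -0.049 with the trends on length and GC content removed. Dcn, which encodes the proteoglycan decorin, had 204, 243 and 188 CPM in Irx4KO and 147, 179 and 129 CPM in DKO (-0.48 ± 0.12, adjusted p = 0.28). Col3a1, a fibrillar collagen, had 2380, 2510 and 2180 CPM in Irx4KO and 2050, 2020 and 1660 CPM in DKO (-0.30 ± 0.11, adjusted p = 0.41). DKO 4 was the lowest in both. Dcn differed by -0.1 in Irx3KO against dHet and by 0.05 in DKO 5, 7 and 10 against WT, and Col3a1 by -0.09 and -0.36. The 11 markers of cushion and fibroblast cells summed to between 4590 and 5410 CPM in Irx4KO and between 3940 and 4620 CPM in DKO, with 3 lower and 1 higher at p under 0.05, and their part in these values was not tested. The count of matrix genes lower at p under 0.05 was 3 without DKO 4 and 5 with the trends on length and GC content removed.

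Among 39 growth factor signals of the ventricle, none was called, with 4 higher and 3 lower at p under 0.05. Wnt11, a non-canonical Wnt, had 8.21 ± 0.621 CPM in Irx4KO and 11.2 ± 1.74 CPM in DKO (0.45 ± 0.15, adjusted p = 0.36). Wif1, a secreted Wnt inhibitor, had 4.22 ± 0.458 and 2.68 ± 0.832 CPM (-0.65 ± 0.26, adjusted p = 0.45). Of 20 Notch pathway genes 1 was higher and 2 lower at p under 0.05, with the ligand Jag1 at -0.29 ± 0.10 (adjusted p = 0.37). The 26 neuronal genes had a median of -0.134 (-0.166 without Irx4KO 3 and -0.071 without DKO 2), with 2 higher and 2 lower at p under 0.05, and Sox10 and Foxd3, which define neural crest, were under 0.1 CPM. The 17 immediate early and heat shock genes had a median of 0.107, and of -0.023 without DKO 3, with none higher and 1, Hsph1, lower at p under 0.05.

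**Figure D5:**
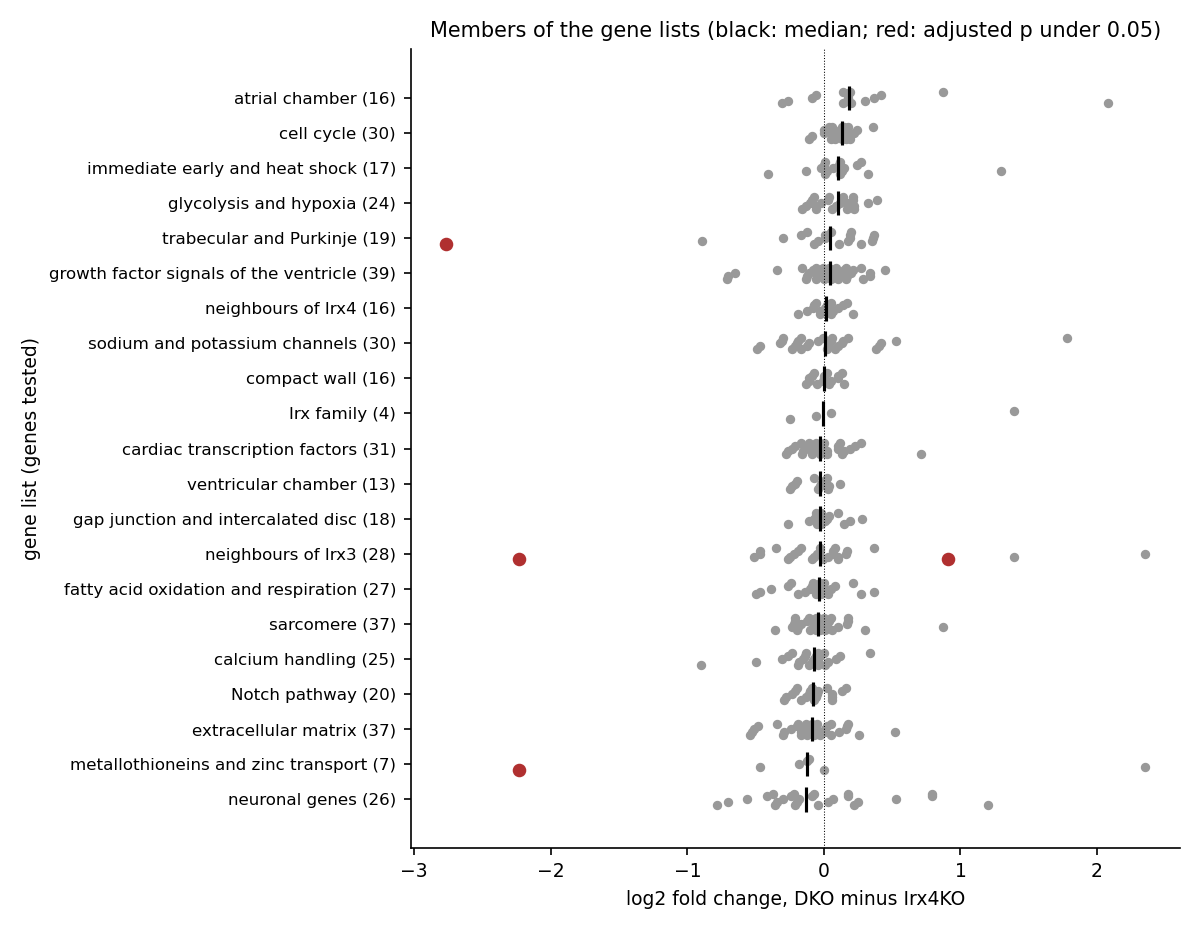
Log2 fold change of DKO minus Irx4KO (x axis) for each tested member of the 21 gene lists (y axis, with the number tested), with the median as a black bar and called genes in red. Medians run from -0.134 (neuronal genes) to 0.182 (atrial chamber), and the called points are Irx3, Mt2 and Bbs2, of which Mt2 appears in 2 lists.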

How the data were processed

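PolyA RNA of ventricles was sequenced from libraries made with a directional kit, per the labels' protocols. The authors deposited for each library the estimated counts and the TPM of 88943 transcripts, per the file headers, made with kallisto 0.42.2 on mm9 per the submitters' processing notes. Neither strand setting nor transcript release is stated. TPM, already scaled for length and library total by the authors per the file headers, served only an alternative.

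Of the transcripts, 78030 (87.73%) were tied by identifier to 28563 genes of GENCODE M21 (GRCm38). The rest held 6.42% to 6.66% of the counts of the 12 libraries fitted and entered no test. Because the builds differ, the annotation gave only names, gene order and lengths. Paralogs that share reads, such as Mt1 and Mt2 or Ccl21a, are uncertain. Estimated counts were summed per gene, rounded and tested with edgeR 4.0.16 in R 4.3.3 (robust quasi-likelihood F test, TMM, filterByExpr, Benjamini-Hochberg over 16292 genes). The fit held 12 libraries of 1 technical profile (DKO 2, 3 and 4, Irx4KO, Irx3KO and dHet, with 26721576 to 42877770 counts each), which leaves 8 residual degrees of freedom and a common dispersion of 0.0161. DKO 5, 7 and 10 and WT were fitted apart. The SE is the size of the log2 fold change divided by the square root of F.

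Alternatives included DESeq2 1.42.0, limma-voom (limma 3.58.1), RLE size factors, other filters, counts rebuilt from TPM, other sets of libraries, a sex term, a surrogate variable (sva 3.50.0), removal of trends on length and GC content, the replicate number as a block and leaving out each library. Replicates 2, 3 and 4 occur in both groups, but deviations of same-numbered libraries correlated at 0.013, 0.043 and 0.004, so they were not paired. On simulated counts of the 12 libraries (16101 genes), 80% of genes changed 1.5-fold, 92% at 2-fold and 100% at 4-fold and 8-fold were called, with 13 false calls. The changed genes, 50 at each fold, all had a mean of at least 3 CPM. Simulated counts took their spread from the trend across genes, not from each gene. Libraries of each group differed by more than sampling noise, with a chi-square per gene of at least 6.31.

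The comparison, the 21 gene lists, the 14 marker lists and the naming rule were chosen with earlier results of these data known. The rule names Irx3 and Irx4, then called genes that reach a mean of 3 CPM in either group and do not overlap (up to 15 in each direction), then up to 4 members of each list with the smallest p, passing over Y-linked genes and models without a descriptive symbol, and some genes it names are not reported here. The DKO 5, 7 and 10 fit, the counts by chromosome, the ribosomal protein list and the motif TGCNCNC were added after the data were seen. Names without a match were Papd7, Kcnj11 and Xist. Promoter sequences are from RefSeq (GRCm38.p6).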

Additional observations from a re-analysis of the deposited data

Results flagged for a closer look

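DKO minus Irx4KO and Irx3KO minus dHet share no library. Both end in loss of Irx3, but the second starts from 1 intact Irx3 copy and also goes from heterozygous to intact Irx4 by label, so the differences below cannot be tied to Irx3 alone. The difference between these 2 contrasts was tested in the same fit, and 2 of 16292 genes passed (0.0123%).

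Trib2 encodes a pseudokinase of the Tribbles family. It had 80.3, 85.6 and 78.1 CPM in Irx4KO and 70.6, 66.8 and 67.2 CPM in DKO, but 119, 118 and 123 CPM in Irx3KO and 100, 99.5 and 105 CPM in dHet. The DKO libraries thus lay below Irx4KO, and the Irx3KO libraries lay above dHet. The difference of the contrasts was -0.50 on the log2 scale.

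Rplp0 encodes a protein of the ribosomal stalk. The difference of the contrasts was 0.61. It had 628, 608 and 680 CPM in dHet, above the libraries of the other 3 genotypes, and its difference of Irx3KO from dHet was itself called (-0.48, adjusted p = 0.00077). Its difference of DKO from Irx4KO was 0.13 ± 0.05 (adjusted p = 0.41).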

How the results depend on the processing

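Irx3 was called in every setting run. The 4 genes called between DKO and Irx4KO became 111 with DESeq2 (62 higher, 49 lower, 18 on chromosome 8), 18 with limma-voom, 13 with no filter on low counts, 7 with only the 6 compared libraries and 1 with counts rebuilt from TPM. Leaving out 1 library gave between 1 (without Irx4KO 3) and 43 (without DKO 3). With the replicate number as a block 3 genes were called, 1 of them on chromosome 8, and the block left the adjusted p at 0.067 for Adgre5 and Mt2 and at 0.19 for Bbs2. Of the 25 other settings, Adgre5 passed in 21, and its log2 fold change ran from -0.51 to -0.43. The 2 genes called between Irx3KO and dHet became 33 with DESeq2, 1 with all 18 libraries, 1 with all 6 DKO libraries as 1 group, and between 2 and 4 without 1 library. The 2 genes that differed between the contrasts became 16 with DESeq2, 0 with all 18 libraries, 0 with all 6 DKO libraries as 1 group, 0 with the replicate block, and 1 each with a surrogate variable, counts rebuilt from TPM, sex as a term, trends removed and limma-voom, and between 1 and 2 without 1 library. The causes were not tested. With 3 libraries a group, an exact permutation test cannot go below 0.1, so single genes rest on the spread shared across genes. A list with no called member does not show that its members stayed the same. Of simulated 1.5-fold changes 80% were called, and smaller ones were not simulated. The simulation changed many more genes than were called here, which eases the adjusted threshold, and changed none under a mean of 3 CPM. In the data, Fkbp8 (0.58 on the log2 scale) and Mt3 (2.35) were not called, so the 80% may overstate the share found here.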

Other observations

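Ribosomal protein genes, a list made after the data were seen, were mostly higher in DKO than in Irx4KO. None of the 81 tested was called, 73 differences were positive, 41 were higher and 1 lower at an unadjusted p under 0.05, and the median log2 difference was 0.141 beside -0.004 over all genes. They are short, with a median transcript length of 762 nt against 2668 nt, and transcript length moved with the groups. With the trends on length and GC content removed, 23 were higher and the median was 0.078. Their median in Irx3KO against dHet was 0.009.

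A pair of genes that DESeq2 called and edgeR did not were present in one group and near 0 in the other, and were chosen after their values were seen. Ccl21a, a chemokine gene with near-identical copies whose reads can be split between them, had 6.29, 7.89 and 6.46 CPM in Irx4KO and 0.0545, 0.0269 and 0 CPM in DKO (edgeR adjusted p = 0.27, DESeq2 adjusted p = 0.00015). Within the other genotypes it also varied, from 0.177 to 3.58 CPM in Irx3KO and from 0.0803 to 6.1 CPM in dHet. Gvin1, a large interferon-inducible GTPase gene, was listed at 0 in all 3 Irx4KO libraries and had 1.99, 1.37 and 1.64 CPM in DKO (edgeR adjusted p = 0.11). It ranged from 0.37 to 1.69 CPM in Irx3KO and from 0.353 to 2.45 CPM in dHet.

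Outside chromosome 8, Grip2 and Klhl18 were among the genes that just missed the threshold. Grip2, a PDZ scaffold, had 42.2, 46.4 and 42.5 CPM in Irx4KO and 35.1, 31.7 and 30.1 CPM in DKO (-0.44 ± 0.07, adjusted p = 0.067), and it differed by 0.04 in Irx3KO against dHet and by -0.31 in DKO 5, 7 and 10 against WT (unadjusted p = 0.024). Klhl18, a substrate adaptor of cullin 3 ligases, had 12.1, 11.5 and 11.7 CPM in Irx4KO and 19.3, 21.9 and 18.3 CPM in DKO (0.75 ± 0.13, adjusted p = 0.067). It stood at 13.5, 18.5 and 21 CPM in dHet and at 19.7, 21.8 and 20.2 CPM in Irx3KO. In DKO 5, 7 and 10 against WT its difference had the opposite sign (14.1 against 17.8 CPM, -0.34, unadjusted p = 0.032).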
